A study of Mus musculus with 39 samples.

Results

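MicroRNAs are short regulatory RNAs that pair with messenger RNAs, chiefly through a seed at bases 2 to 8 of the mature strand, and lower their translation and stability. They are cut in 2 steps from long primary transcripts. In the nucleus the microprocessor (Drosha with Dgcr8) frees a hairpin precursor, which is exported by Xpo5 and trimmed to the mature strand by Dicer1 in the cytoplasm. Many hairpins lie in introns of host genes, so that in nuclear RNA a read on a precursor comes from a primary transcript or a host intron, not from the mature microRNA.

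The gene rows described here are those whose symbol starts with Mir and a digit or with Mirlet7 and whose mean normalized count was at least 5 over all libraries of at least 1 of 3 RNA-seq tables. Of 1180 rows with such a symbol among 24421 gene rows, 226 met this minimum, 221 of them precursor rows and 5 host transcript rows whose symbol ends in hg. The remaining 954 rows stayed under it, and 354 rows were at 0 in every library. Just inside the minimum were Mir7666 (highest batch mean 5.03), Mir3473g (5.24) and Mir504 (5.24), and just outside were Mir325 (4.98), Mir361 (4.96) and Mirlet7i (4.90). The level chose these rows, so their levels are given as a description only.

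Nuclei came from the neocortex of adult male and female mice that carried Arc-creERT2 (TG/WT), a tamoxifen-inducible Cre under the promoter of the activity-regulated gene Arc, and, at the R26 locus, 1 or both alleles (M/WT, M/M) of CAG-Sun1-sfGFP-Myc, a fluorescent tag of the nuclear membrane that this Cre switches on. Every group received tamoxifen before a social interaction test, so the tag was meant to mark nuclei that had used the Arc promoter around that test. No untagged or untreated group was compared, so tagging without tamoxifen or at other times was not tested. In FANS the fluorescent nuclei were sorted by flow cytometry, whereas in INTACT they were bound through the tag to antibody-coated beads. Nuclear RNA was measured in 18 FANS and 13 INTACT libraries in 3 batches, each a distinct biological source (4 and 4 in batch 1, 7 and 4 in batch 2, 7 and 5 in batch 3), and open chromatin was measured by ATAC-seq in 3 libraries per technique, technical replicates of 1 source. RNA integrity, by the account given with the data, was higher in the first batch than in the others, and it cannot be told apart from other differences between batches. Since nothing in the labels ties libraries of a batch to separate mice, p-values within a batch measure the spread between these libraries, which may be technical.

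Depth on these rows was low. The libraries held 4205665 to 11028713 reads on genes, but only 3213 to 6729 reads on the precursor rows, and the median precursor row tested had 12.0 to 13.0 reads per library. In batch 1 depth differed by technique, with 4853224 to 6066759 reads on genes in FANS and 8621143 to 11028713 in INTACT libraries. The precursor rows there held 3522 to 4733 reads in FANS and 5524 to 6729 in INTACT libraries. The part of this depth difference in the results was not tested. A mean under 20 was found in 152 of 213 rows tested in batch 1, 143 of 203 in batch 2 and 132 of 180 in batch 3. Normalized values are the authors' counts divided by 1 size factor per library, set in each batch separately, so levels are compared only within a batch. The labelled cell type was checked against marker genes. The 6 markers of excitatory neurons summed to 7278 to 9640 normalized counts over all libraries, yet the 6 astrocyte markers summed to 4900 to 7688 and the 6 oligodendrocyte markers to 1572 to 15175, so glial markers were detected in nuclei labelled as neuronal. Most of the astrocyte sum was Slc1a2, with means of 5773 to 7347, and Gfap had means of 9.78 to 16.9. Oligodendrocyte markers moved with the technique in batches 1 and 2, with summed levels of 5679 to 7114 in FANS and 9161 to 9684 in INTACT libraries of batch 1 and 6472 to 12747 against 12577 to 15175 in batch 2, and 4 and 3 of the 6 were called higher in INTACT. In batch 1, 3 of 6 astrocyte markers (Aqp4 at 1.74, Slc1a3 at 1.52 and Gja1 at 2.07 on the log2 scale) were also called higher in INTACT, with sums of 6179 to 6857 in FANS and 7514 to 7688 in INTACT libraries. So were 2 of 5 markers of inhibitory neurons (Sst at 1.45 and Slc32a1 at 0.68), with sums of 203 to 275 against 331 to 344, and the pericyte marker Pdgfrb (0.81), while of 3 tested microglial markers P2ry12 was lower (-1.01) and Cx3cr1 (1.09) and Csf1r (0.20) were not called. Slc1a3 was called higher in batch 2 too (0.93), and in batch 3 no marker of these lists was called. The part of these markers in the results was not tested. Fewer cells of a type and less RNA per cell cannot be told apart in such pooled nuclei.

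Of the 221 precursors, which were 55 to 139 bases long, RefSeq's annotation of GRCm38.p6 (the mm10 build of the files) placed 119 in an intron of a gene on the same strand, 18 over an exon of such a gene, 25 on the strand opposite a gene and 59 outside other genes. The sequence table of RefSeq held 199 of them. The mature strands of the rows on which the results turn are shown 5′ to 3′ with the seed in capitals, and the first lines show the duplicated genes Mir128-1 and Mir128-2, which give the same miR-128-3p.
miR-128-3p (Mir128-1 and Mir128-2): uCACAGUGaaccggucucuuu
miR-128-1-5p (Mir128-1): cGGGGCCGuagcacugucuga
miR-128-2-5p (Mir128-2): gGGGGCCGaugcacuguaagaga
miR-344-3p (Mir344 and Mir344-2): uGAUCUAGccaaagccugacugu
miR-690 (Mir690): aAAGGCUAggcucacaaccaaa
miR-493-3p (Mir493): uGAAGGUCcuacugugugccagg
miR-29b-3p (Mir29b-1): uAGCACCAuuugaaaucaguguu
miR-181b-5p (Mir181b-2): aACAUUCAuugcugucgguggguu
miR-191-5p (Mir191): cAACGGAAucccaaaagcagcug
miR-7036a-5p (Mir7036): aGCGGGGUucgguggggaagaga
miR-677-5p (Mir677): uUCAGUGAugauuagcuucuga
miR-3068-3p (Mir3068): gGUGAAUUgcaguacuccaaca
miR-6516-3p (Mir6516): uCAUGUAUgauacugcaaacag
miR-6236 (Mir6236): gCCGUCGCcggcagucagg
miR-3064-5p (Mir3064): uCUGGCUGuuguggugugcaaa

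Of the 5 rows with the highest mean, 4 were shared by all batches (Mir124a-1hg, Mir3064, Mir22hg and Mir128-1), and the other was Mir6236 in batch 1 and Mir99ahg in batches 2 and 3. Mir124a-1hg, the long transcript that carries a miR-124 hairpin, a microRNA abundant in neurons, had the highest mean in all 3 batches, 7697 ± 646 (SD, n = 4) normalized counts in FANS and 6309 ± 69.6 (SD, n = 4) in INTACT libraries of batch 1. Among precursors, Mir3064 (chr11:106782693-106782759, minus strand, over an exon of Ddx5, an RNA helicase that works with the microprocessor) came first. Since longer hairpins collect more reads, levels were also set per kilobase of positions at which a read of 70 bases can start and still touch the precursor. On this scale the means ran from 12.0 over a median of 77.1 to 3197 in batch 1, with Mir3064 at 3197, Mir128-1 at 1679, Mir6236 at 1168 and Mir128-2 at 942. In batch 3 Mir3064 (1565), Mir128-1 (1210) and Mir128-2 (881) led this scale. Mir22hg and Mir99ahg, transcripts around the miR-22 and miR-99a hairpins, did not pass the test in any batch, with log2 differences of 0.07, 0.07 and 0.01 for Mir22hg and -0.23, -0.14 and -0.10 for Mir99ahg. Of the 5 host transcript rows, 1 was lower at an adjusted p under 0.05 (limma) in batch 1, where 17.5% of all genes were, and 0 reached the fold threshold. Mir124a-1hg had 6787 to 8192 in FANS and 6215 to 6377 in INTACT libraries of that batch, without overlap.

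Whether the isolation technique shifts these rows was asked within each batch, with a difference given as log2(normalized count + 1) in INTACT minus that in FANS. In batch 1 the microRNA rows were mostly lower in INTACT nuclei, with a median log2 difference of -0.39 over the 213 rows tested, against 0.01 over all 15114 genes tested, and 75.6% of the rows were below 0 against 49.1% of all genes. In batch 2 the median was -0.12 over 203 rows, against -0.00 over 14876 genes. In batch 3 it was 0.12 over 180 rows, against -0.00 over 14440 genes, and 32.8% of the rows were below 0. The medians of batches 1 and 3 lay on opposite sides of 0.

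**Figure D1:**
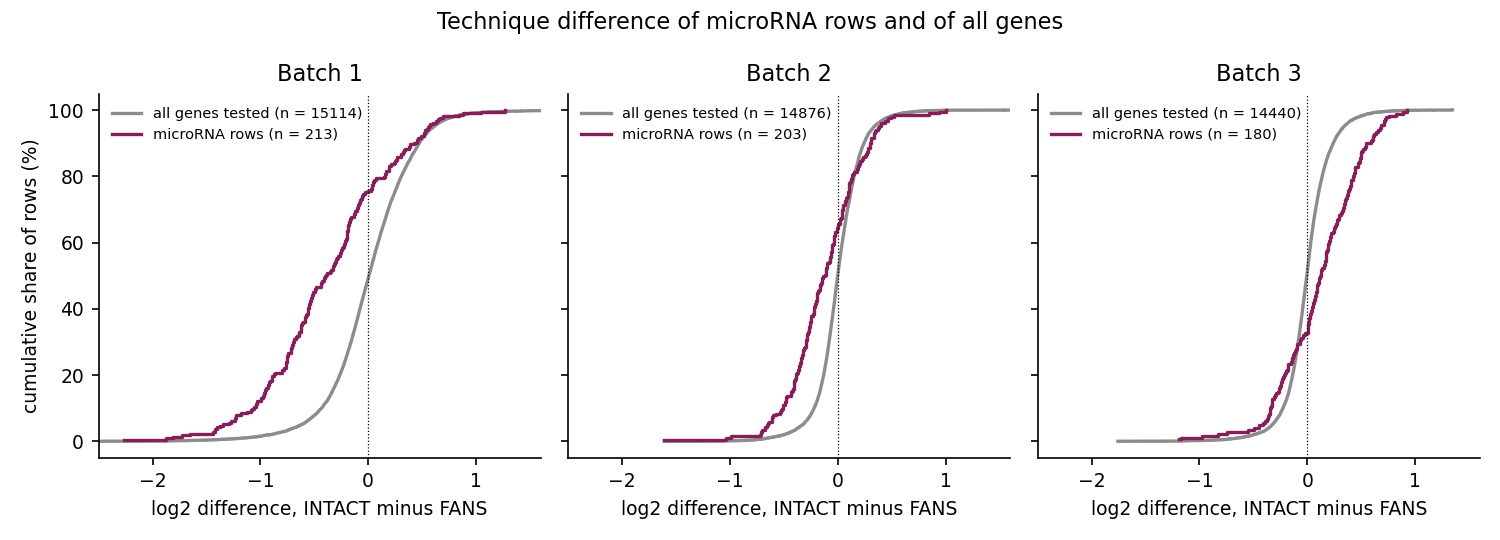
Cumulative share of rows (%, vertical axis) by log2 difference between techniques (horizontal axis, INTACT minus FANS) for microRNA rows and for all genes tested in each batch. The curve of the microRNA rows lies left of that of all genes in batch 1 (median -0.39 against 0.01), slightly left over most of its range in batch 2 (-0.12) and, above the lowest differences, right in batch 3 (0.12).

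At an adjusted p under 0.05 by limma and 1.5-fold or more, 39 rows fell (18.3% of those tested, where the share over all genes was 3.94%) and 3 rose (1.41%, against 4.03%) in INTACT nuclei of batch 1. Without the fold threshold the shares were closer, since 44 rows or 20.7% were lower at an adjusted p under 0.05, against 17.5% of all genes. Of all genes 36.1% passed that adjusted p in either direction, and of the microRNA rows 23.9% did, 7 of them higher (against 18.6% of all genes). Every INTACT library lay below every FANS library in 40 rows (18.8%, against 16.5% of all genes) and above in 4 rows (against 17.1%). In batch 2, 1 of 203 rows fell (against 0.0336% of all genes) and 0 rose (against 0.0941%), with 1 row higher and 19 lower at an unadjusted p under 0.05 (1289 and 979 of all 14876 genes), and edgeR and DESeq2 likewise called 0 higher. Without the fold threshold these counts stayed at 1 lower (against 0.309% of all genes) and 0 higher (against 0.834%), where 1.14% of all genes passed in either direction. The INTACT libraries all lay below the FANS libraries in 1 row of batch 2 (against 1.40%) and above in 0 (against 1.59%). In batch 3, 3 rows fell (1.67%, against 0.346%) and 0 rose (against 0.0139%), with 9 rows higher and 8 lower at an unadjusted p under 0.05 (1052 and 933 of all 14440 genes), and edgeR and DESeq2 called 0 higher as well. A fit with the replicate number as a block called 2 higher, and leaving out FANS replicate 4 or 7 called 1. Without the fold threshold 3 were lower (against 0.519% of all genes) and 0 higher (against 1.18%), where 1.70% of all genes passed in either direction. The INTACT libraries all lay below the FANS libraries in 2 rows of batch 3 (against 0.589%) and above in 0 (against 0.997%). In batch 1, 41 rows had a mean under 5 in 1 technique and were tested through the other, and 6 of the 39 rows that fell were of this kind, as was 1 of the 3 that rose. The 13 rows not tested in batch 1, 23 in batch 2 and 46 in batch 3 had means under 5 there.

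Reads outside gene features were a smaller share in INTACT libraries of batches 1 and 2, whereas in batch 3 the INTACT range lay within the FANS range. They made up 81.9 to 84.3% of uniquely aligned reads in FANS and 73.6 to 75.3% in INTACT libraries of batch 1, 81.9 to 84.0% against 79.8 to 81.4% in batch 2, and 82.6 to 87.5% against 84.4 to 85.5% in batch 3. Precursor rows received 726 to 800 reads per 1000000 gene reads in FANS and 595 to 641 in INTACT libraries of batch 1, 750 to 844 against 677 to 724 in batch 2, and 683 to 785 against 699 to 759 in batch 3. When counts were scaled to all uniquely aligned reads in place of the authors' size factors, the median of all genes in batch 1 moved by 0.63 to 0.64 and that of the microRNA rows turned to 0.21, with 39 rows called higher and 9 lower. Relative to the median of all genes, the rows then stood at -0.43, against -0.40 with the authors' scaling. The direction of the batch 1 rows is therefore stated relative to other genes, and the part of the reads outside features was not tested.

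Mir128-2 (chr9:112118636-112118711, minus strand, in an intron of Arpp21) showed the largest fall in batch 1. Its normalized counts were 197, 217, 279 and 214 in the FANS and 53.6, 45.1, 37.9 and 48.9 in the INTACT libraries, so the groups did not overlap. The log2 difference was -2.26 (SE 0.134, adjusted p = 3.97e-12, limma), and it stayed between -2.34 and -1.63 under every alternative run. In batch 2 its lowest, median and highest FANS values were 115, 151 and 213, whereas the INTACT libraries held 114, 151, 121 and 126. In batch 3 the FANS values were 75.8, 127 and 165 and the INTACT libraries held 105, 134, 136, 166 and 158. The techniques overlapped in both batches, with log2 differences of -0.28 (adjusted p = 0.324) and 0.25 (adjusted p = 0.452).

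Its duplicate Mir128-1 (chr1:128202361-128202430, plus strand, in an intron of R3hdm1) gives the same miR-128-3p, whose seed is printed above. Its counts in batch 1 were 239, 293, 301 and 226 in FANS and 217, 194, 196 and 201 in INTACT libraries, without overlap. The log2 difference of -0.38 (SE 0.0947, adjusted p = 0.00251) was under the 1.5-fold threshold, and it was -0.20 in batch 2 and 0.01 in batch 3. The hosts differed as well. Arpp21, a brain RNA-binding protein, fell by 0.78 on the log2 scale in batch 1 (11276 ± 837 SD in FANS and 6540 ± 181 SD in INTACT libraries, n = 4 each, adjusted p = 3.33e-12), and R3hdm1 had a log2 difference of -0.44 (adjusted p = 9.57e-09), under the fold threshold.

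Mir690 (chr16:28599935-28600043, minus strand) lies in an intron of Fgf12, a growth factor homologue that binds sodium channels. In batch 1 it had 20.6, 28.2, 23.2 and 33.6 normalized counts in FANS and 6.06, 6.12, 5.98 and 7.27 in INTACT libraries, all lower. It fell by 1.88 on the log2 scale (SE 0.301, adjusted p = 2.20e-05), whereas Fgf12 had a log2 difference of -0.22. Mir29b-1 (chr6:31063023-31063093, minus strand, outside other genes) belongs to the miR-29 family, known for targeting collagens. Its values of 47.6, 76.0, 84.5 and 45.9 in FANS all lay above the 24.2, 18.4, 21.2 and 24.5 of INTACT libraries, and the log2 difference was -1.44 (SE 0.217, adjusted p = 9.76e-06). The row of Mir29b-2, which gives the same miR-29b-3p, was at 0 in every library. In batches 2 and 3 the log2 differences were -0.40 and 0.17 for Mir690 and -0.57 and 0.13 for Mir29b-1, none past the test.

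**Figure D2:**
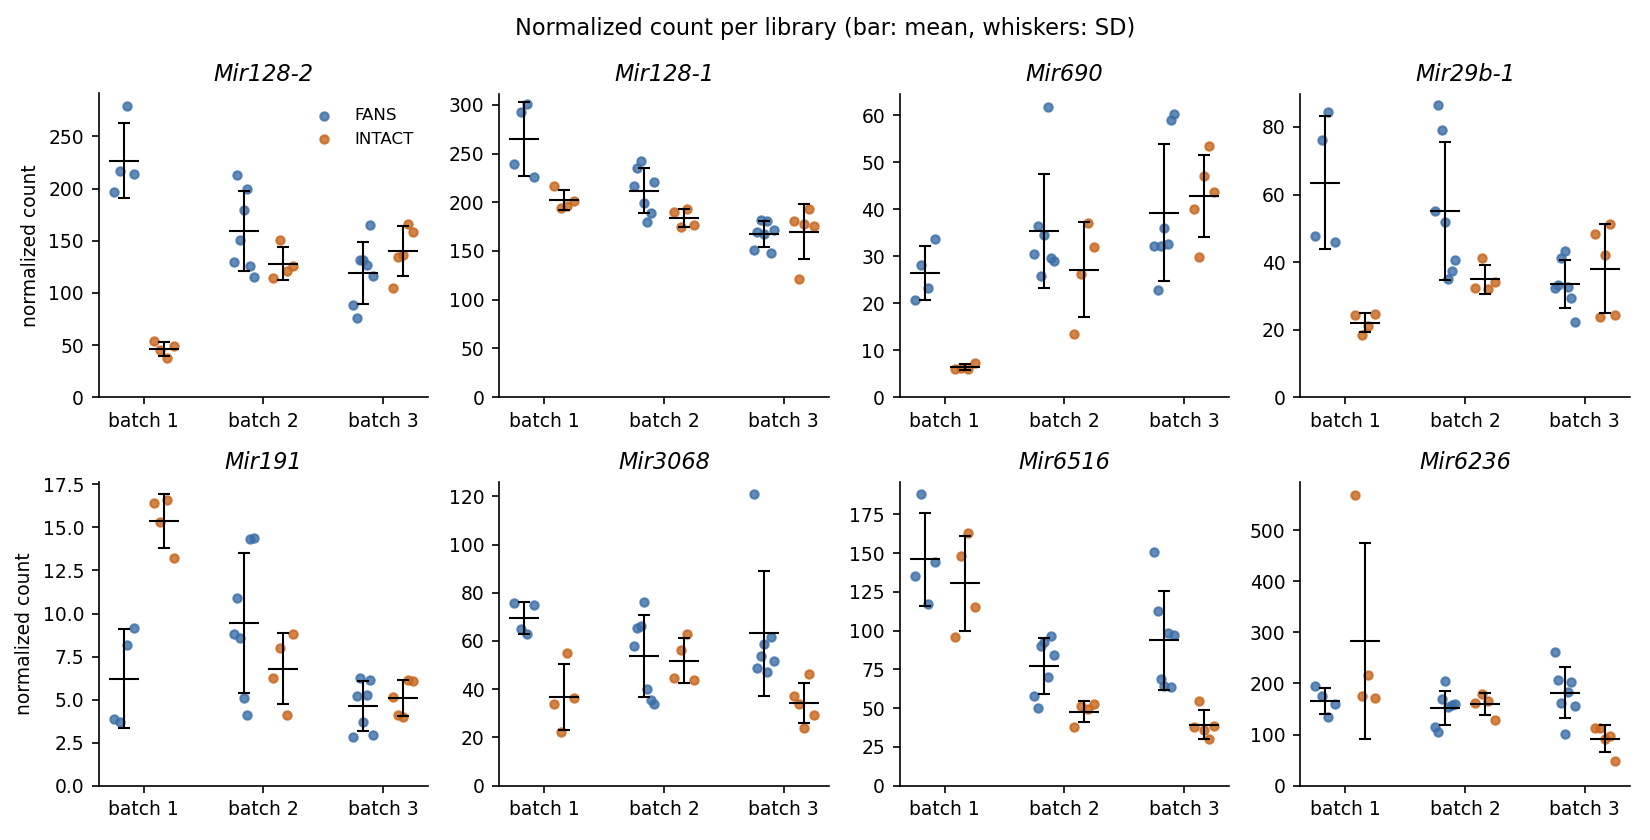
Normalized count (vertical axis) in each library of 8 microRNA rows, by batch and technique, where each point is 1 library, the bar is the mean and the whiskers are the SD. Mir128-2, Mir690 and Mir29b-1 have no overlap between techniques in batch 1 and overlap in batches 2 and 3, and in batch 3 the mean of the INTACT libraries lies below that of the FANS libraries for Mir6516 (39.4 against 93.9) and Mir6236 (92.2 against 182).

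Mir344 (chr7:61877770-61877864, minus strand, in an intron of A230057D06Rik) fell by 1.73 (SE 0.477, adjusted p = 0.00574), from 14.2, 13.5, 15.0 and 6.11 in FANS to 6.06, 3.06, 3.32 and 0.66 in INTACT libraries. The lowest FANS value lay close to the highest INTACT value. Mir344-2 (chr7:61940027-61940106, minus strand), which gives the same mature strands, had 11.6, 12.3, 17.7 and 15.3 against 12.1, 4.59, 11.9 and 8.59, with overlap and a log2 difference of -0.62 (adjusted p = 0.174). The host A230057D06Rik, a non-coding transcript, fell by 0.82 (adjusted p = 3.54e-08). Mir6336 (chr2:42447439-42447568, minus strand) lies in an intron of Lrp1b, a large lipoprotein receptor, and fell by 1.65 (adjusted p = 0.00164) from a mean of 15.3 ± 3.40 to 4.39 ± 2.11 (SD, n = 4 each). Mir1927 (chr1:160295864-160295972, minus strand) in Rabgap1l, a Rab GTPase activator, fell by 1.42 (adjusted p = 4.59e-04) from 23.0 ± 4.24 to 7.94 ± 1.19 (SD, n = 4 each). Neither Lrp1b (-0.27) nor Rabgap1l (-0.25) reached the fold threshold. Mir181b-2 (chr2:38853830-38853918, plus strand, in an intron of Nr6a1os) had 7.72, 24.5, 9.54 and 15.3 in FANS and 6.06, 4.59, 5.31 and 1.98 in INTACT libraries and fell by 1.42 (adjusted p = 0.0105). That call was lost without FANS replicate 2, whose value was the highest (-1.13, adjusted p = 0.0591), and with scaling to all uniquely aligned reads (-0.87, adjusted p = 0.0624).

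The other rows that fell in batch 1 included Mir665 (-1.40), Mir876 (-1.29), Mir222 (-1.06), Mirlet7f-2 (-0.98), Mirlet7e (-0.95), Mir138-2 (-0.76), Mir384 (-0.62) and Mir138-1 (-0.62). Of the 39, 23 lay in a host intron, 4 over a host exon, 6 opposite a gene and 6 outside other genes. By place, the median log2 difference was -0.51 over 111 rows in host introns, -0.32 over 17 over host exons, -0.54 over 23 opposite a gene and -0.18 over 57 outside other genes. Of these 57, 25 lay between Rian and Mirg on chromosome 12, with a median of 0.04, so this group leans on 1 locus. The median was -0.06 over 39 rows between Dlk1 and Dio3, which holds that locus, and -0.50 over the 169 rows outside it. Of the 38 rows tested again in batch 2, 28 were below 0, with a median of -0.11. Of the 39 tested in batch 3, 11 were below 0, with a median of 0.12 and a range from -0.83 to 0.61.

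Only 3 rows rose in batch 1 under this scaling. Mir191 (chr9:108568319-108568392, plus strand) overlaps an exon of Dalrd3, a factor for tRNA methylation, and had 3.86, 3.68, 8.18 and 9.17 in FANS and 16.4, 15.3, 16.6 and 13.2 in INTACT libraries, without overlap. It rose by 1.27 (SE 0.364, adjusted p = 0.00785), and Dalrd3 rose by 0.73 (adjusted p = 9.21e-08). Mir7036 (chr5:137296624-137296688, minus strand) lies in an intron of Srrt, a nuclear factor of microRNA processing, and rose by 1.05 (adjusted p = 0.0393) from 3.86, 4.90, 4.09 and 4.58 in FANS to 9.52, 12.2, 7.31 and 11.9 in INTACT libraries, without overlap. Mir677 (chr10:128085286-128085363, plus strand) lies in an intron of Atp5b, a subunit of the mitochondrial ATP synthase, and rose by 0.84 (adjusted p = 0.0403) with 6.43, 20.8, 10.9 and 9.17 in FANS and 18.2, 20.6, 19.9 and 22.5 in INTACT libraries. The hosts Srrt (0.41, adjusted p = 9.99e-06, limma) and Atp5b (0.40, adjusted p = 3.65e-06, limma) were higher but under the fold threshold. The groups of Mir677 overlapped through FANS replicate 2. Its call was lost without any 1 library other than FANS replicate 2 (adjusted p from 0.0516 to 0.122), with edgeR (0.0593), with DESeq2 (0.107) and without a filter on low values (0.0782). That of Mir7036 was lost without FANS replicate 1 or 3 or any 1 INTACT library (adjusted p from 0.0504 to 0.120), with DESeq2 (0.0793) and with the replicate block (0.0610). Without INTACT replicate 1, the call of Mir191 alone was left. In batch 2 the differences were -0.36 for Mir191, 0.52 for Mir7036 and -0.15 for Mir677, and none passed the test.

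In batches 2 and 3, 3 rows in all were called, and Mir6516 was called in both. Mir6516 (chr11:117077348-117077457, plus strand) lies in an intron of Snhg20, a small nucleolar RNA host gene by its name, and overlaps a small Cajal body RNA gene, Gm26083, so reads of the 2 cannot be told apart. In batch 3 its lowest, median and highest FANS values were 63.9, 97.2 and 151, and all 5 INTACT libraries lay lower, at 38.1, 54.5, 36.1, 29.8 and 38.6. It fell by 1.19 (SE 0.181, adjusted p = 2.63e-04), and Snhg20 had a log2 difference of -0.01. In batch 2 the FANS values were 50.1, 84.0 and 96.7 and the INTACT values 37.6, 51.5, 49.4 and 52.8, with an overlap at the edge. Its fall there of 0.66 (SE 0.165, adjusted p = 0.0443) was lost on leaving out any 1 of 9 of the 11 libraries, with adjusted p up to 0.181, and over all alternatives its adjusted p ran from 0.00754 to 0.438. In batch 1 the techniques overlapped (log2 difference -0.17, adjusted p = 0.400).

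Small nucleolar RNA rows are given beside Mir6516. In batch 3, 19 of 31 H/ACA rows (Snora) and 12 of 56 C/D rows (Snord) fell, with median log2 differences of -0.91 and -0.55, where 0.346% of all genes fell, while the microRNA rows had a median of 0.12. In batch 2, 1 of 32 Snora and 0 of 59 Snord rows fell (0.0336% of all genes), with medians of -0.25 and -0.06. In batch 1, 6 of 32 Snora rows (18.8%) and 3 of 59 Snord rows (5.08%) fell, with medians of -0.19 and -0.11. The share there was 18.3% for microRNA rows and 3.94% for all genes. In that batch 78.1% of Snora rows and 75.6% of microRNA rows lay below 0.

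Mir3068 (chr12:87437679-87437757, minus strand) lies in an intron of Alkbh1, a nucleic acid demethylase, and fell in batches 1 and 3. In batch 1 it had 75.9, 65.0, 62.7 and 74.9 in FANS and 33.7, 22.2, 55.1 and 36.4 in INTACT libraries, without overlap (log2 difference -0.97, SE 0.206, adjusted p = 6.00e-04), but with scaling to all uniquely aligned reads the difference was -0.34 and the call was lost (adjusted p = 0.138). In batch 3 the FANS values were 47.2, 53.6 and 121 and the INTACT values 37.1, 33.9, 24.1, 46.2 and 29.4, again all lower (-0.83, SE 0.193, adjusted p = 0.0180), but the call was lost without INTACT replicate 3 (adjusted p = 0.111) or INTACT replicate 5 (adjusted p = 0.0731), with that scaling (adjusted p = 0.125) and without a filter on low values (adjusted p = 0.0558). In batch 2 its techniques overlapped, with a log2 difference of 0.00. Alkbh1 had differences of 0.12, 0.08 and -0.05, none past the test. Mir6236 (chr9:110281287-110281409, plus strand, opposite an intron of Gm39429) fell by 0.98 in batch 3 (SE 0.177, adjusted p = 0.00198), from FANS values of 102, 183 and 262 to 112, 112, 91.3, 96.5 and 48.7 in INTACT libraries, where 1 FANS value lay within the INTACT range. In batch 1 it had a log2 difference of 0.58 (adjusted p = 0.0445, under the fold threshold), with 568 in INTACT replicate 1 against 171 to 217 in the other INTACT libraries. That row was called higher with edgeR (0.73, adjusted p = 0.00950), with scaling to all uniquely aligned reads (1.22, adjusted p = 2.94e-06) and without FANS replicate 1 or INTACT replicate 2, 3 or 4 (0.64 to 0.75, adjusted p from 0.0144 to 0.0495).

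The technique difference itself was then compared between batches with an interaction term over all 31 libraries. It differed at an adjusted p under 0.05 in 23 of 168 rows tested in all batches (13.7%), a share below the 18.1% over all genes. Mir128-2 had the lowest adjusted p (1.22e-10), with a difference 1.98 higher in batch 2 and 2.52 higher in batch 3 than in batch 1. For Mir6516 (adjusted p = 0.0195) and Mir6236 (adjusted p = 8.01e-04) the difference was more negative in batch 3 than in batch 1.

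At the median, gene counts of the hosts moved less than the intronic rows. By default HTSeq counts genes over exons, whereas these rows lie in introns, so unlike parts of a transcript were compared. Reads on host introns as a whole were not measured. Over 107 intronic rows with a tested host in batch 1, the median log2 difference was -0.48 for the rows and -0.11 for their 89 hosts counted once per row, and 78 rows (72.9%) lay below their host. In batch 2, 70 of 101 rows (69.3%) lay below the host, and in batch 3, 34 of 92 (37.0%). Across rows, which share libraries and in part hosts and are not independent replicates, row and host differences correlated with Pearson's r of 0.40, 0.27 and 0.25 and Spearman's rho of 0.37, 0.25 and 0.25 in batches 1, 2 and 3. Of the 22 intronic rows that fell in batch 1 with a tested host, 2 had a host that fell (Arpp21 and A230057D06Rik) and 7 had a host above 0. Mir6989 was among these, with a log2 difference of -1.03 in an intron of Map4k2 at 0.58.

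**Figure D3:**
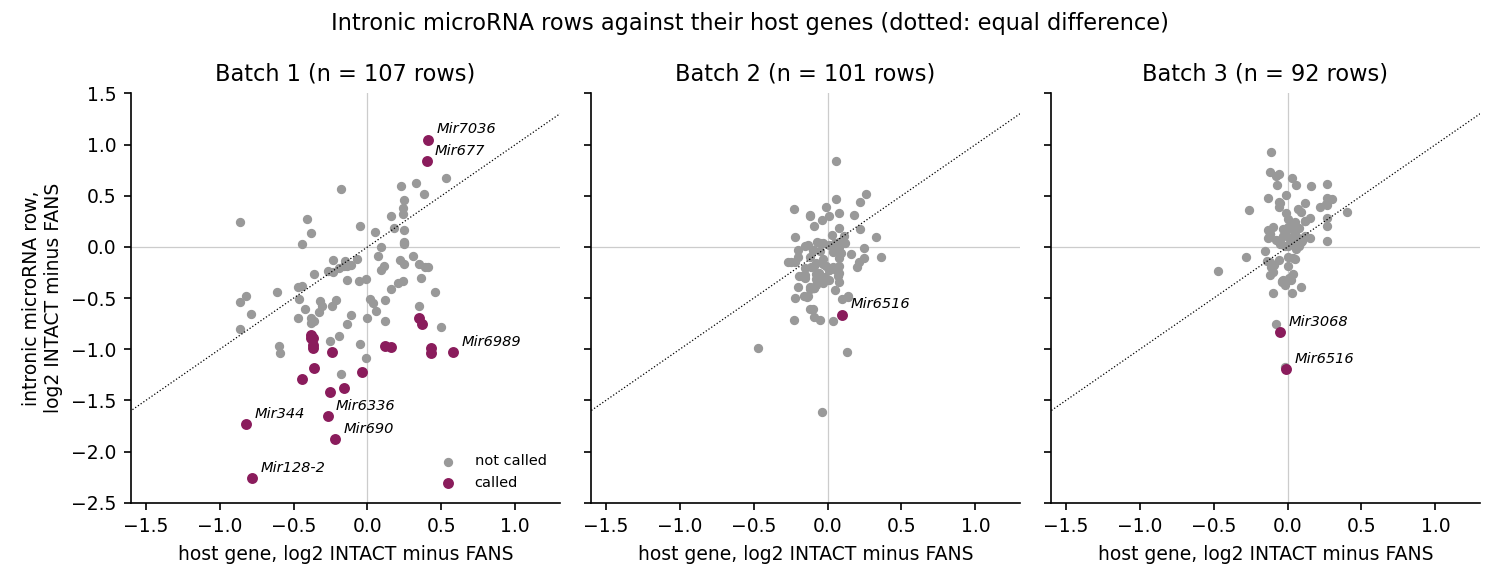
Log2 difference (INTACT minus FANS) of each intronic microRNA row (vertical axis) against that of its host gene (horizontal axis) in each batch, where each point is 1 row, filled points in purple were called and the dotted line marks equal differences. In batch 1, 78 of 107 points lie below the line, whereas in batch 3, 34 of 92 do.

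Of 96 host genes of intronic rows, 8 fell and 0 rose in batch 1, with 39 lower and 25 higher at an adjusted p under 0.05 alone, where 17.5% of all genes were lower and 18.6% higher. Besides Arpp21 and A230057D06Rik these were 3110039I08Rik (-0.86), the host of Mir100, Mirlet7a-2 and Mir125b-1, Klhl3 (-0.79), Xkr6 (-0.70), AI854517 (-0.61), Rmst (-0.60) and Sgcz (-0.59). With the fold threshold the share over all genes was 3.94% for falls and 4.03% for rises. With scaling to all uniquely aligned reads, 45 hosts were called in batch 1 in place of 8, where 8204 of all genes were called higher and 103 lower. In batches 2 and 3, 0 hosts were called by limma or edgeR, with 28 and 18 at an unadjusted p under 0.05, which 2268 of 14876 and 1985 of 14440 genes passed.

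The chromosome 12 stretch between Dlk1 and Dio3 (829 kilobases) is imprinted, and its maternal transcripts Meg3, Rian and Mirg carry many microRNAs. It held 41 precursor rows, all on the plus strand. In batch 1 all 7 rows opposite Rtl1 or in Rian were below 0, as were 12 of the 25 tested between Rian and Mirg. All 5 rows opposite Rtl1 (127.7 to 136.1 kilobases from the start of Dlk1) lay between -1.81 and -0.74, and both rows in Rian lay at -0.69 and -0.58. The 25 tested rows between Rian and Mirg (256.6 to 282.4 kilobases) ran from -1.24 to 0.65 with a median of 0.04, and the 7 in Mirg (283.1 to 295.4 kilobases) from -0.17 to 0.46 with a median of 0.04. Spearman's rho between position and difference was 0.69 over 39 rows in batch 1, 0.33 over 41 rows in batch 2 and 0.11 over 37 rows in batch 3, where the rows share libraries and neighbouring rows may share a primary transcript.

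Mir493 (chr12:109580233-109580315, plus strand), the first of these rows, had 14.2, 25.8, 32.7 and 19.9 in FANS and 5.19, 7.65, 4.65 and 5.29 in INTACT libraries of batch 1, without overlap. It fell by 1.81 (SE 0.338, adjusted p = 1.40e-04). Since the strand setting of the counting is not given, reads on Mir493 and the other rows opposite Rtl1 cannot be told apart from reads of the Rtl1 strand. Mir665 (-1.40), Mir411 (-1.24) and Mir1188 (-0.69) fell as well, and of the 39 rows tested in batch 1, 0 rose, with 3 higher at an unadjusted p under 0.05. Of all genes 3.94% fell and 4.03% rose in that batch, and 3459 of 15114 were higher at an unadjusted p under 0.05. Among the long transcripts, Meg3 fell by 0.82 (adjusted p = 1.92e-12) and Rtl1 by 0.64 (adjusted p = 3.40e-07), while Rian (0.35) and Mirg (0.25) lay above 0 and under the fold threshold. In batch 3, 36 of 37 tested rows lay above 0, with a median of 0.38, where 51.1% of all genes lay below 0. Of the 37, 0 were called by limma, with 7 at an unadjusted p under 0.05, where 1985 of 14440 genes passed that p, 0.0139% rose and 0.346% fell.

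**Figure D4:**
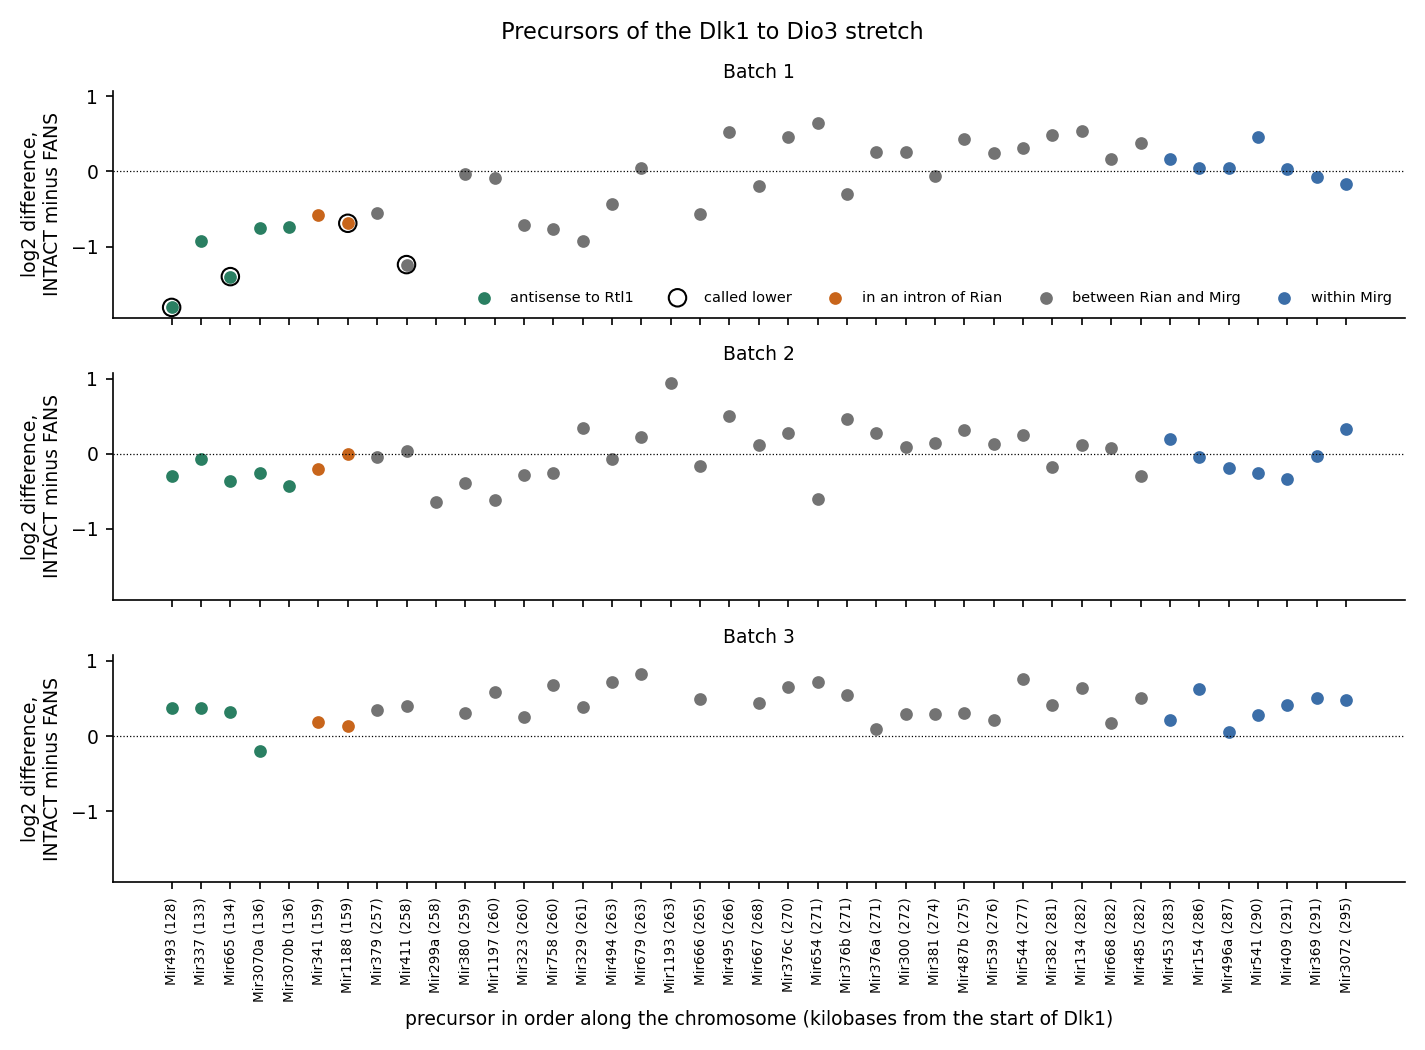
Log2 difference (INTACT minus FANS, vertical axis) of the precursor rows between Dlk1 and Dio3, in their order along the chromosome with kilobases from the start of Dlk1 in brackets, in each batch. Colours mark the annotated position and rings mark rows called lower. In batch 1 the first 9 rows, up to Mir411 at -1.24, all lie below 0 (Mir493 lowest at -1.81), rows of the middle block lie on both sides of 0 and those in Mirg lie near 0, whereas in batch 3 all but 1 lie above 0.

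MicroRNAs were also grouped by cell type and by seed. Of 22 rows listed as enriched in neurons, 17 were among the 226, and 3 of these (17.6%) fell in batch 1 (Mir128-2, Mir138-1 and Mir138-2), with a median of -0.19. That share was close to the 18.3% of all microRNA rows, where 3.94% of all genes fell. The miR-9 rows, known from neural progenitors and neurons, had differences of -0.62 (Mir9-1), -0.25 (Mir9-2) and -0.44 (Mir9-3) and did not pass the test. Mir132 and Mir212, which share the seed AACAGUC and respond to neuronal activity, had -0.17 and 0.56. Of 11 rows listed for glia, vessels and blood, Mir219a-2, an oligodendrocyte microRNA, alone was among the 226, with means of 11.2 in batch 1, 10.5 in batch 2 and 2.12 in batch 3 and differences of -0.11 and -0.20. Mir338, Mir223, Mir155 and Mir451a were at 0 in every library, but so was the neuronal Mir124a-1, although its host transcript Mir124a-1hg had the highest mean of all microRNA rows.

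The largest family was let-7. Its 9 rows, Mir98 included, lay between -0.98 and -0.05 in batch 1, with Mirlet7a-2 at -0.80, and Mirlet7e and Mirlet7f-2 fell (22.2%). In batch 3 the 8 tested lay between -0.34 and 0.44, and 0 were called by limma (0.346% of all genes fell), with 2 at an unadjusted p under 0.05 (1985 of 14440 genes). The 3 rows with the seed ACAUUCA (Mir181a-1, Mir181a-2 and Mir181b-2) were at -0.72, -1.22 and -1.42 in batch 1, and Mir222 fell by 1.06 while Mir221, with the same seed GCUACAU, was at -0.67 and did not pass. Both miR-138 rows, with the seed GCUGGUG, fell. Of 6 tested rows of the Mir466 and Mir467 families, which are near copies of each other, 4 fell in batch 1. Since only unique alignments were kept, reads that match several copies equally were left out. These families are small, and their counts of calls stand beside the 18.3% of all microRNA rows and 3.94% of all genes that fell in that batch.

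The machinery of microRNA production was measured at the messenger level. Of 29 tested genes of 30 listed, 0 were called in any batch by limma with the authors' scaling or by edgeR, with 19, 5 and 5 at an unadjusted p under 0.05 in batches 1, 2 and 3, which 6724 of 15114, 2268 of 14876 and 1985 of 14440 genes passed. With scaling to all uniquely aligned reads, 11 were called in batch 1, where 8204 of all genes were called higher and 103 lower. At an adjusted p under 0.05 with no fold threshold, 15 of the 29 were lower and 3 higher in batch 1, where 17.5% of all genes were lower and 18.6% higher. Drosha had a log2 difference of -0.10 (adjusted p = 0.123), its partner Dgcr8 -0.24 (adjusted p = 0.0213), the exporter Xpo5 0.05 (adjusted p = 0.514) and Dicer1 -0.26 (adjusted p = 7.85e-05). Srrt alone passed this adjusted p in all 3 batches, at 0.41, 0.26 and 0.30, under the fold threshold each time.

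Open chromatin near the 221 precursors was compared between techniques as the number with an ATAC-seq peak within 500 bases. It was 52, 54 and 59 in the FANS libraries and 36, 34 and 42 in the INTACT libraries (55.0 ± 3.61 and 37.3 ± 4.16, SD, n = 3 each), without overlap. The two-sided exact permutation test gave p = 0.100, the smallest that 3 against 3 allow, and the 3 libraries of a technique are technical replicates. The lists held 113224, 99514 and 123895 peaks in INTACT and 123596, 128910 and 130088 in FANS libraries, with an overlap between INTACT replicate 3 and FANS replicate 1, which had a peak near 42 and 52 precursors. Other rows with such a symbol moved in the same way, with a peak near 196 to 204 of 951 in FANS and 141 to 160 in INTACT libraries. A peak stood near 30 precursors in all 6 libraries, near 7 in the 3 FANS and no INTACT libraries, near 0 in the 3 INTACT and no FANS libraries, and near 158 in none. Among the 7, Mir369 and Mir409 had the same fold enrichments, as had Mir381 and Mir487b, so neighbours can share a peak. These counts were not made over the other rows and are a description. Read depth behind the peaks is unknown.

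A peak stood within 500 bases of Mir128-2, Mir344, Mir344-2 and Mir6516 in all 6 libraries, and likewise of Mir132, Mir212, Mir9-1, Mir9-3, Mir181a-1 and Mir7666. At Mir344 the fold enrichment at the peak summit, as the authors' peak caller gave it, was 17.8, 18.5 and 18.9 in FANS and 14.7, 15.6 and 16.3 in INTACT libraries. At Mir128-2 it was 4.07, 4.85 and 5.11 against 3.75, 3.85 and 4.73, with overlap. No peak was listed within 500 bases of Mir128-1, Mir690, Mir29b-1, Mir493, Mir191, Mir3068 or Mir3064 in any library.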

How the data were processed

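Nuclear RNA-seq (31 libraries, 3 batches) and ATAC-seq (6 libraries) of neocortical nuclei were used. According to the study's methods, the authors sequenced single-end reads of 70 bases, aligned them to mm10 (STAR), used molecular identifiers to drop duplicates, kept unique alignments, and obtained gene counts from HTSeq that DESeq normalized. The deposited values are thus a normalized count signal for each gene, the reads over the size factor of that library. The steps between low values gave whole reads for 100% of values (tolerance 0.011 normalized counts). In its default mode HTSeq leaves out reads that also touch an exon of another gene, which may lower precursors over exons but was not tested. Neither the mode nor the strand setting of the counting is given in the sources used here. For the ATAC-seq the authors aligned reads with Bowtie2, removed duplicates and called peaks per library with MACS2. The deposited lists give a score (10 times the -log10 q-value), the fold enrichment, and the -log10 p-value and q-value of each summit, and only positions, fold enrichment and, in an alternative, the -log10 q-value were used.

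Tables of each batch were tested by limma 3.58.1 in R 4.3.3 (lmFit, then eBayes, trend on). Values entered as log2(normalized count + 1), and genes needed a mean of 5 or more. A call needed a Benjamini-Hochberg adjusted p under 0.05 over all genes and at least 1.5-fold. Such fold changes understate those of low rows. The interaction with batch was fitted over genes tested in all 3 batches, and edgeR 4.0.16 and DESeq2 1.42.0 on the recovered whole reads were alternatives, with others of pseudocount, filter, scaling, replicate block and left-out libraries. The 5 summary rows stayed out of tests and library sizes. Scripts were tested on simulated data. FANS replicate 3 and, of INTACT, replicate 5 of batch 2 are listed in the labels but not analysed here.

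The microRNA rows and lists were chosen with earlier results of these data known. Rows were named by rule: in each batch and direction the 8 called with the largest change, the 5 with the highest mean in each batch, those called alike in 2 or more batches, their hosts, rows with the same mature strand, those on either side of the minimum, and the core biogenesis genes Drosha, Dgcr8, Xpo5 and Dicer1. Rows given outside this rule (groups by seed, by position on chromosome 12 and the further rows that fell) were chosen after their values were seen. Places, hosts and mature strands came from RefSeq (GRCm38.p6), and small RNA overlaps also from GENCODE M21.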

Additional observations from a re-analysis of the deposited data

Results flagged for a closer look

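In 8 of the 120 groups of libraries of the 20 named rows, 1 library stood apart from the others by Dixon's criterion, which chance meets in about 1 of 20 groups. Mir6236 had 568 normalized counts in INTACT replicate 1 of batch 1, where the nearest other library had 217. Mir3068 had 121 in FANS replicate 1 of batch 3 (nearest 61.5), and Mir128-1 had 121 in INTACT replicate 2 of batch 3 (nearest 176). Mir690 had 61.8 in FANS replicate 6 of batch 2 (nearest 36.4) and 7.27 in INTACT replicate 4 of batch 1 (nearest 6.12). Mir344 had 6.11 in FANS replicate 4 of batch 1 (nearest 13.5), Mir1927 had 17.5 in INTACT replicate 3 of batch 2 (nearest 11.0), and Mir7036 had 10.1 in FANS replicate 4 of batch 3 (nearest 4.86).

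The technique difference differed between batches in 12 of the 18 named rows tested in all batches, by the interaction term of limma. The adjusted p was 1.22e-10 for Mir128-2, 1.26e-04 for Mir690, 4.76e-04 for Mir493, 8.01e-04 for Mir6236, 0.00171 for Mir29b-1 and 0.00467 for Mir6336. It was 0.00704 for Mir124a-1hg, 0.0195 for Mir6516, 0.0230 for Mir344, 0.0311 for Mir1927, 0.0436 for Mir181b-2 and 0.0448 for Mir3068. Since 11 of these rows were named for a call in at least 1 batch, this count is a description.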

How the results depend on the processing

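Scaling to all uniquely aligned reads moved the batch 1 results most: 39 rows higher and 9 lower in place of 3 and 39, a median that reversed from -0.39 to 0.21, 45 host genes in place of 8 and 11 biogenesis genes in place of 0. In batch 2 it gave 2 rows lower and a median of 0.00. Testing rows with a mean of at least 20 left 0 higher and 19 lower in batch 1, with fewer rows tested, and medians of -0.32 in batch 1 and -0.17 in batch 2. DESeq2 gave 1 higher in batch 1 and 0 lower in batch 2, where its adjusted p for Mir6516 was not given. Dropping the fold threshold gave 7 higher in batch 1, and pseudocount 5 gave 2 lower in batch 2 and a median of -0.31 in batch 1. No filter on low values, or leaving out rows that overlap another small RNA gene (Mir6516 among them), gave 0 lower in batch 2. Same-numbered libraries did not deviate together (correlations -0.07 to 0.11). The replicate block gave 0 lower in batch 2 and 2 higher in batch 3, and the libraries it uses, fitted without it (chosen after seeing the data), gave 2 lower and 1 higher.

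Leaving out each library gave 1 to 4 higher and 27 to 44 lower in batch 1, 0 and 0 to 2 in batch 2, and 0 to 1 and 2 to 4 in batch 3. The single higher row in batch 3 appeared without FANS replicate 4 or 7. Medians ran from -0.42 to -0.37, -0.15 to -0.08 and 0.09 to 0.14, host genes called in batch 1 from 7 to 9, and the difference in precursors near a peak from -20.0 to -15.7. Of 16 calls of named rows, 16 were kept with either pseudocount or 75th percentile scaling, 14 with the replicate block, 13 without a filter and 12 with scaling to all uniquely aligned reads, and leaving out a library kept 118 of 143. No named call was reversed in these settings. Where a result moved, the cause was not tested, save that fewer rows are tested at a higher minimum. Counts of 12.0 to 13.0 reads per median row limit what smaller differences can be detected.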
